A study of Mus musculus with 8 samples.

Results

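Hmga2 and Smad3 lie in stretches of the mouse genome that were broadly covered by 5-hydroxymethylcytosine (5hmC) in fibroblasts. These stretches were much less covered in induced pluripotent stem cells. TET enzymes make 5hmC by oxidising 5-methylcytosine in DNA. The loci were taken as all deposited 5hmC peaks overlapping chr10:119780001-119930000 for Hmga2 (150 kb) and chr9:63480001-63620000 for Smad3 (140 kb), in mm9. Of 684512 peaks in the 8 lists, 412 fell in the Hmga2 window and 278 in the Smad3 window, 690 in all. The windows were chosen because each holds a 100-kb stretch among the largest falls in peak cover from MEF to iPSC. MEF and iPSC values are therefore given as a description and nothing is supported with them. The libraries of the reprogramming intermediates took no part in that choice.

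The samples were mouse embryonic fibroblasts (MEF), which the growth protocol calls OG2-MEFs, intermediates made by the OSNK method and by the OySyNyK method at D1, D3 and D5, and mouse iPSC whose title carries the OySyNyK factors. D is read as day. OSNK is known from the study as Oct4, Sox2, Nanog and Klf4, and OySyNyK uses Oct4, Sox2 and Nanog joined to YAP's transactivating part, together with Klf4; this is background and not given by the labels. During reprogramming the medium held vitamin C and leukemia inhibitory factor. The iPSC were kept on mitomycin C-treated MEF feeder cells, and no iPSC made with OSNK was among the samples. 5hmC-bearing DNA fragments were captured by a chemical tag on whole cultures, so fewer cells carrying 5hmC at a site and less 5hmC per cell cannot be told apart. Each group had 1 library, so the spread between cultures is unknown and no test was made. Where 3 values of a method follow each other, they are those of D1, D3 and D5 in that order.

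Hmga2 encodes a chromatin protein that binds the minor groove of AT-rich DNA through AT-hooks. It is high in embryonic and mesenchymal cells and is a textbook target of let-7 microRNAs. Smad3 encodes a receptor-regulated Smad, which the TGF-beta type I receptor phosphorylates and which then enters the nucleus with Smad4 to regulate genes of the mesenchymal and matrix programmes. TGF-beta signalling favours the fibroblast state and is known to hold back reprogramming. In many tissues 5hmC is found along the bodies of transcribed genes. The assignment of the windows to the genes is that of the windows' definition. No gene annotation in the coordinates of the lists was used here, so exons, introns, UTRs and start sites were not placed among the peaks, and the other genes of the let-7 and TGF-beta circuits were not analysed here.

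Mammalian 5hmC forms mostly at cytosines followed by guanine, and the 250 bases before each gene's start are shown for the supply of such CpG sites, which are in capitals. Both sequences are from RefSeq on GRCm38.p6, minus strand, read 5′ to 3′; Hmga2 is chr10:120476470-120476719 and Smad3 is chr9:63757995-63758244 in that build, which is not the build of the peaks.
Hmga2: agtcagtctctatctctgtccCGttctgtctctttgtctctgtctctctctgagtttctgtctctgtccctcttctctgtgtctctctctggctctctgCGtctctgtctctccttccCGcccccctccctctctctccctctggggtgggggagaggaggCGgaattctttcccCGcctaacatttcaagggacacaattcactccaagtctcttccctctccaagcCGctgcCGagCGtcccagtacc
Smad3: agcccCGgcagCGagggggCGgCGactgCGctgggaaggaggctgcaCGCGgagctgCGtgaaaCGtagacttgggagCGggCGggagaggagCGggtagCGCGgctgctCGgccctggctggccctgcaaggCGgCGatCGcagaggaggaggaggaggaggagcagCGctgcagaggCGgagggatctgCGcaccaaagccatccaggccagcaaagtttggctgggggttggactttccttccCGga
Hmga2 has 8 CpG sites here, as many as or fewer than 43.0% of the 32851 promoters in the table, whose median is 6. Smad3 has 22, a number reached by 14.8% of them. No peak was placed on either sequence.

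The lists differed in length and in the sequence they covered. They held 54938 to 116302 peaks covering 41.1 Mb in iPSC to 98.2 Mb at OSNK D3. The median peak width was 641 bp in iPSC to 911 bp at OSNK D3, and every list began at a score of 50. Sequencing depth is unknown, and a peak can be missing from a list because the library was shallow.

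At Hmga2, cover was kept or raised through D3 with both methods and lasted to D5. Peaks covered 35.8% of the window in MEF. OSNK libraries had 44.1%, 51.6% and 38.4%. OySyNyK libraries had 40.5%, 39.6% and 28.4%, and iPSC 6.79%. OSNK was the higher of the methods on each day, and OySyNyK D5 was the lowest intermediate. In peak-covered sequence this was 53.7 kb in MEF, 77.4 kb at OSNK D3, 42.5 kb at OySyNyK D5 and 10.2 kb in iPSC. The median tile of 150 kb, among 17572 along the genome, was covered to 0.910% in MEF and 1.61% or less in each intermediate. At OSNK D1 no tile was covered more than the Hmga2 window, and at OySyNyK D5, 28 tiles were. In iPSC, 1099 tiles, 6.25%, were covered more.

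At Smad3 cover was at least 24.7% in every intermediate, and OSNK had more of it than OySyNyK on each day. Peaks covered 32.5% of the window in MEF. OSNK libraries had 34.1%, 43.7% and 35.2%, above MEF each time when all peaks were counted. At D5 that order turned in 3 of 4 alternatives, the change from MEF being -7.37 points with a score of at least 100, -3.90 with equal numbers of peaks and -1.08 when scaled to the whole cover. OySyNyK libraries had 30.4%, 27.3% and 24.7%, below MEF each time and lower on each later day. The gap between the methods at D1, -3.68 points, became 1.79 when scaled to the whole cover. iPSC had 9.37%. The number of peaks moved apart from the cover: 28 in MEF and 51 at OSNK D5, for 45.5 kb and 49.3 kb. Among 18829 tiles of 140 kb, 8 were covered more than the Smad3 window in MEF, 21 at OSNK D5, 71 at OySyNyK D5 and 652 in iPSC.

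**Figure D1:**
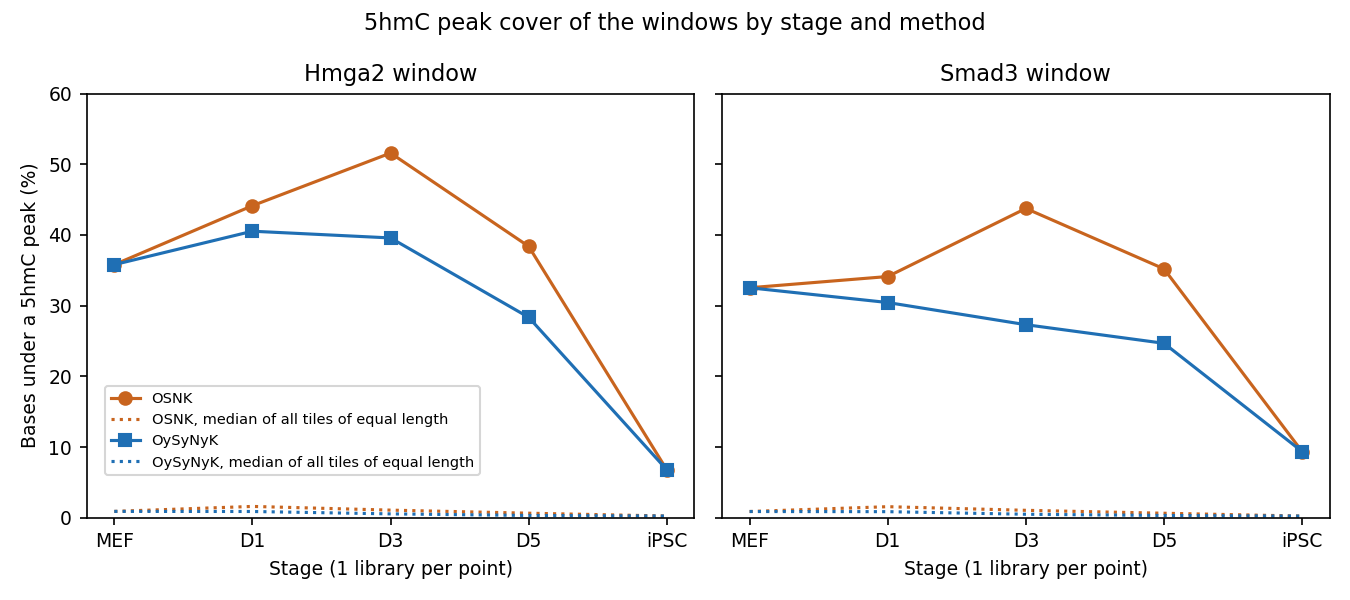
Percent of each window under 5hmC peaks (vertical axis) by stage (horizontal axis), 1 library per point, with OSNK as circles, OySyNyK as squares and the same MEF and iPSC libraries in both lines. Dotted lines give the median of all genome tiles of the window's length. Cover stays at 24.7% or more in every intermediate and is 6.79% and 9.37% in iPSC.

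Since the lists covered different amounts of the genome, each window was also set against the mean tile of its own library. The Hmga2 window had 15.0 times the mean in MEF. OSNK gave 12.7, 13.9 and 14.4 times, and OySyNyK 13.9, 14.04 and 13.0 times. These 6 values ran from 12.7 to 14.4 times. In iPSC, whose library took part in choosing the window, it was 4.36 times. The Smad3 window had 13.6 times the mean in MEF and 6.02 times in iPSC. OSNK gave 9.79, 11.8 and 13.2 times, and OySyNyK 10.4, 9.69 and 11.3 times. On this scale every intermediate was below MEF in both windows, and relative to the mean tile neither window fell from D1 to D5 with OSNK, and with OySyNyK the Hmga2 window alone did.

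Within the Hmga2 window cover formed a block between empty or poorly covered ends. The bin at 119780001-119790000 had no peak in MEF or any intermediate, and the bin at 119910001-119920000 had none in any of the 8 libraries. The longest stretch with no peak anywhere ran over 13.1 kb, from 119908627 to 119921704. Between these ends, the best covered 10-kb bin in MEF was 119860001-119870000. Its cover was 74.4% in MEF and 0% in iPSC, with 71.7%, 83.5% and 61.0% for OSNK and 73.3%, 60.1% and 51.5% for OySyNyK. This bin went from the highest of its window in MEF to no peak in iPSC, while at least 51.5% of it stayed under peaks in all 6 intermediates.

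The next bins by MEF cover were 119880001-119890000 and 119840001-119850000. The former was covered to 54.3% in MEF and 10.2% in iPSC, OSNK having 66.0%, 69.5% and 41.8% and OySyNyK 61.4%, 58.6% and 44.4%. The latter was covered to 53.0% in MEF and 6.16% in iPSC, OSNK having 67.1%, 86.0% and 64.8% and OySyNyK 49.6%, 54.04% and 20.6%. At D5 the bin at 119840001 thus set the methods apart, and the bin at 119880001 did not. The highest iPSC cover was in 119850001-119860000, at 18.1%, where MEF had 49.0%. It was followed by 119820001-119830000 at 12.2% and 119880001-119890000 at 10.2%. Of the 15 bins, 13 were less covered in iPSC than in MEF, 1 was more covered, and 1 was empty in both.

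The Smad3 window was less even. Its best covered bins in MEF were 63560001-63570000 at 64.9%, 63590001-63600000 at 63.95% and 63570001-63580000 at 51.7%. The bin at 63590001 reached 81.4%, 91.2% and 64.7% under OSNK but 74.9%, 43.5% and 54.7% under OySyNyK, with 13.4% in iPSC. The bin at 63560001 reached 40.9%, 64.4% and 47.1% under OSNK, 43.1%, 39.8% and 42.5% under OySyNyK, and 6.60% in iPSC. Both bins kept at least 39.8% of their length under peaks in each intermediate.

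The least covered bins of MEF at Smad3 behaved in other ways. The bin at 63480001-63490000 had no MEF peak but gained 20.3%, 29.5% and 9.98% under OSNK, and 11.9%, 14.2% and 0% under OySyNyK. The bin at 63530001-63540000 had 6.80% in MEF and rose day by day with OSNK, to 27.4%, 35.3% and 37.9%. With OySyNyK it had 14.5%, 19.3% and 14.1%, and in iPSC it had no peak. The last of these, 63610001-63620000, had 3.36% in MEF, 4.96% in iPSC and no peak in between. The highest iPSC cover was 27.3% in 63580001-63590000 and 23.05% in 63490001-63500000, where MEF had 40.0% and 18.2%. Of the 14 bins, 11 were less covered in iPSC than in MEF and 3 were more covered.

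**Figure D2:**
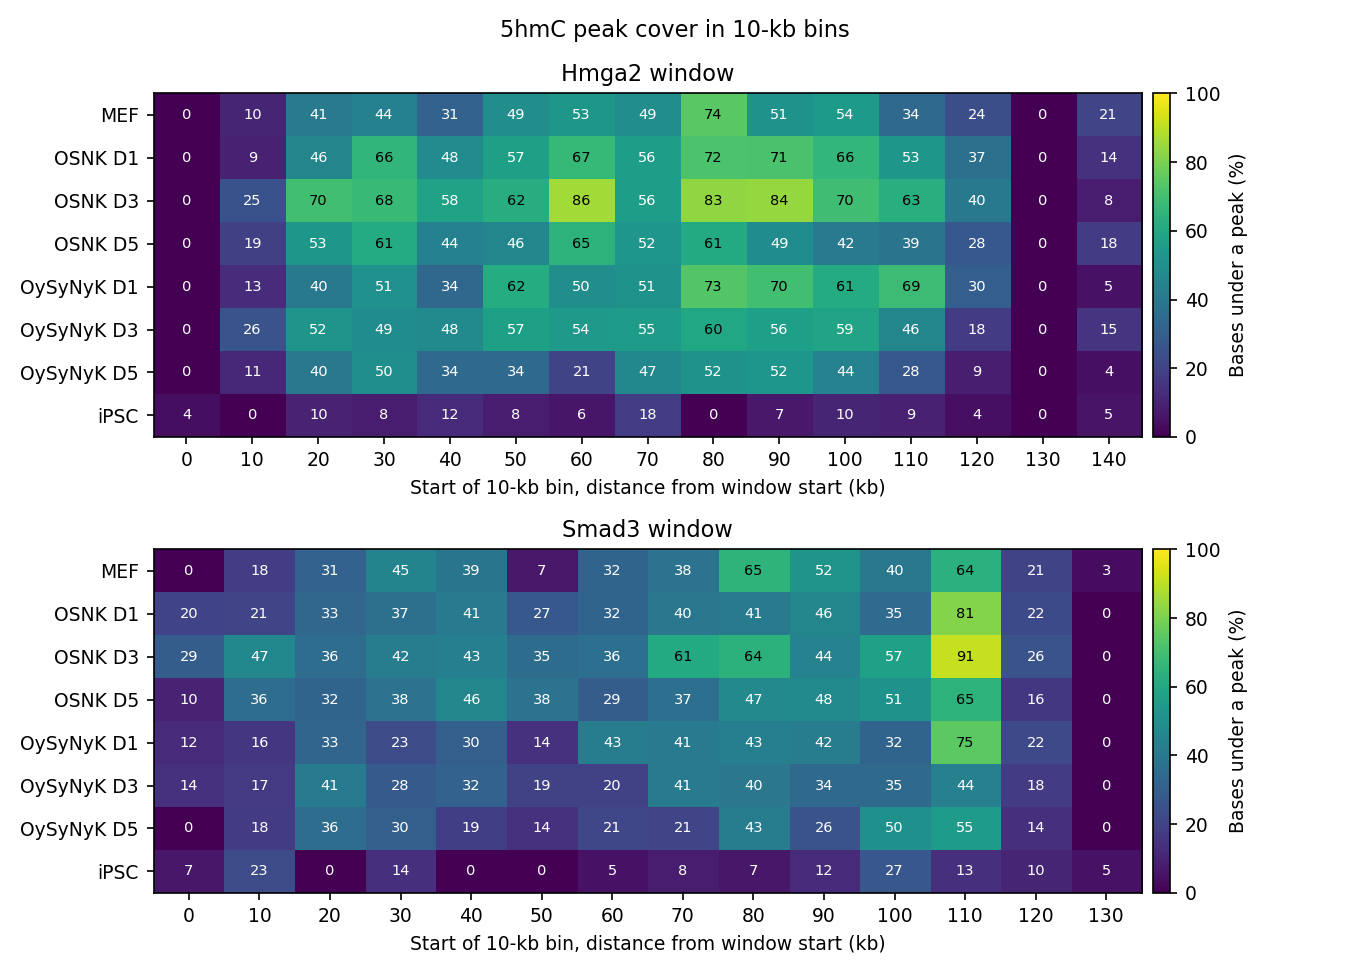
Percent of each 10-kb bin under 5hmC peaks, with libraries as rows and bins as columns, labelled by distance from the window's start in kb; the printed numbers are the values to the nearest percent. The Hmga2 block keeps its outline in the 6 intermediates and is much less covered in iPSC, with a highest bin of 18.1%.

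To count changes between libraries, a 10-kb bin was tested where either library covered at least 10% of it, and called where its cover differed by at least 2-fold. From MEF to iPSC, 13 of 13 tested Hmga2 bins and 8 of 11 tested Smad3 bins were lower, beside 55.6% of all tested bins; the windows were chosen on this contrast and nothing is read from these counts. From D1 to D5, which took no part in the choice, few bins were called. The shares of all tested bins include bins just at 10% cover, and no background of bins of like cover was made. The low counts are therefore not read as stability of these loci. With OSNK, 0 of 13 Hmga2 bins and 1 of 13 Smad3 bins were lower, against 35.3% of all tested bins. With OySyNyK, 3 of 12 Hmga2 bins and 1 of 13 Smad3 bins were lower, against 36.4%. In the other direction 1 Hmga2 bin with OSNK was higher (13.3% of all tested bins) and none was with OySyNyK (14.8%). For OySyNyK at Smad3 the count of lower bins was 8 of 12 with peaks of a score of at least 100. At the steps between, OSNK D1 to D3 gave 1 higher and no lower bin in each window (20.3% and 15.3% of all tested bins). From OSNK D3 to D5, where cover fell in both windows, no Hmga2 bin and 1 Smad3 bin of 13 were lower, against 31.8%, and 1 Hmga2 bin was higher, against 5.30%. With OySyNyK, 2 Hmga2 bins were higher (15.7%) and 1 Smad3 bin was lower (18.9%) from D1 to D3. From OySyNyK D3 to D5, 4 of 13 Hmga2 bins and 1 of 13 Smad3 bins were lower, against 28.0%, and none was higher, against 9.37%.

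MEF against D1 gave few calls too. At OSNK D1 no Hmga2 bin of 13 was called in either direction, and 2 of 13 Smad3 bins were higher, where 36.5% of all tested bins were higher and 9.60% lower. At OySyNyK D1, 1 Hmga2 bin was higher and 1 lower, and 2 Smad3 bins were higher (28.4% and 13.4% of all tested bins). At D3, OSNK had 1 higher and 1 lower Hmga2 bin and 3 higher Smad3 bins (47.9% and 16.5% of all tested bins), and OySyNyK had 1 and 2 higher bins and no lower one (34.7% and 23.8%). At D5, OSNK had no called Hmga2 bin and 1 higher Smad3 bin, while 29.8% of all tested bins were lower than in MEF and 35.4% higher. At OySyNyK D5, 3 of 13 Hmga2 bins and 2 of 12 Smad3 bins were lower, against 35.6%, and 1 Smad3 bin was higher, against 28.5%. Bins of high MEF cover have little room for a 2-fold rise and need a large loss for a 2-fold fall, which these counts do not separate. Between D5 and iPSC, all 13 tested Hmga2 bins were lower for OSNK (57.6% of all tested bins) and all 11 for OySyNyK (47.5%). At Smad3, 9 of 12 were lower in each, and no bin of either window was higher (22.5% and 21.1%, and 25.9% from MEF to iPSC). Both of these comparisons use the iPSC library that chose the windows.

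The surroundings of the windows were poorer in 5hmC. The 50 kb before the Hmga2 window had cover of 4.44% in MEF, 6.40% in iPSC and between 3.17% and 9.004% in the intermediates. The 50 kb after it had 7.60% in MEF, 20.3% at OSNK D3 and 4.10% in iPSC. Before the Smad3 window, cover was 4.02% in MEF and 4.33% in iPSC, and after it 14.3% and 7.63%. In MEF the nearest peak outside the Hmga2 window lay 13.0 kb before it, with a score of 57.0, and 16.9 kb after it, with a score of 114. The first and last MEF peaks inside scored 89.2 and 72.9. At Smad3 the nearest outer MEF peaks lay 20.1 kb before, with a score of 172, and 7.82 kb after, with a score of 61.3, and the outermost inner ones scored 448 and 97.0. The 100-kb tile that brought Hmga2 in, 119800001-119900000, had the rank of 1 among 26363 by its fall, and the Smad3 tile, 63500001-63600000, the rank of 4. Their neighbours to the right ranked 2073 and 4641.

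Peak widths showed how the cover was built. At Hmga2 the median width was 880 bp in MEF and 467 bp in iPSC, with 840, 1334 and 811 bp for OSNK and 932, 859 and 826 bp for OySyNyK. The widest peak was 3165 bp in MEF, 5030 bp at OSNK D3 and 999 bp in iPSC. Peaks of 2 kb or more numbered 1 of 53 in MEF, 5 of 61, 10 of 50 and 4 of 58 with OSNK, and 4 of 60, 3 of 62 and 1 of 49 with OySyNyK. The broad MEF cover of Hmga2 was thus made of many peaks of ordinary width, since 3.62% of all MEF peaks reached 2 kb. At OSNK D3, the library with the highest median width, 7.25% of all peaks did.

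At Smad3 the MEF cover was made of fewer and wider peaks. The median width was 1190 bp in MEF and 761 bp in iPSC, with 1056, 1457 and 874 bp for OSNK and 1059, 904 and 873 bp for OySyNyK. Peaks of 2 kb or more numbered 7 of 28 in MEF, 5 of 39, 9 of 36 and 3 of 51 with OSNK, and 7 of 32, 1 of 40 and 2 of 35 with OySyNyK. None of the 17 iPSC peaks reached 2 kb. At D5 of both methods the window thus held more and narrower peaks than in MEF. So did the whole lists, whose median width was 650 bp at OSNK D5 and 703 bp at OySyNyK D5, against 841 bp in MEF. Peaks of 2 kb or more made up 1.62% and 2.12% of those D5 lists, against 3.62% of the MEF list.

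Scores are the authors' value for each peak and depend on each library's depth, so they are read beside the median of all peaks of the same list. At Hmga2 the median score was 111 in MEF, where all peaks had 103. It was 186, 264 and 153 with OSNK, where all peaks had 105, 91.4 and 81.3, and 192, 149 and 141 with OySyNyK, where all peaks had 95.8, 84.2 and 75.8. In each of the 6 intermediates the Hmga2 peaks scored above their list, by a wider margin than in MEF. In iPSC the order turned, with 64.9 against 71.04 for all peaks. At Smad3 the median score was 196 in MEF and 74.4 in iPSC, with 168, 147 and 103 for OSNK and 199.9, 113 and 80.9 for OySyNyK. All were above their lists. The margin was wider than in MEF at OySyNyK D1 only, and narrower in every other intermediate and in iPSC.

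**Figure D3:**
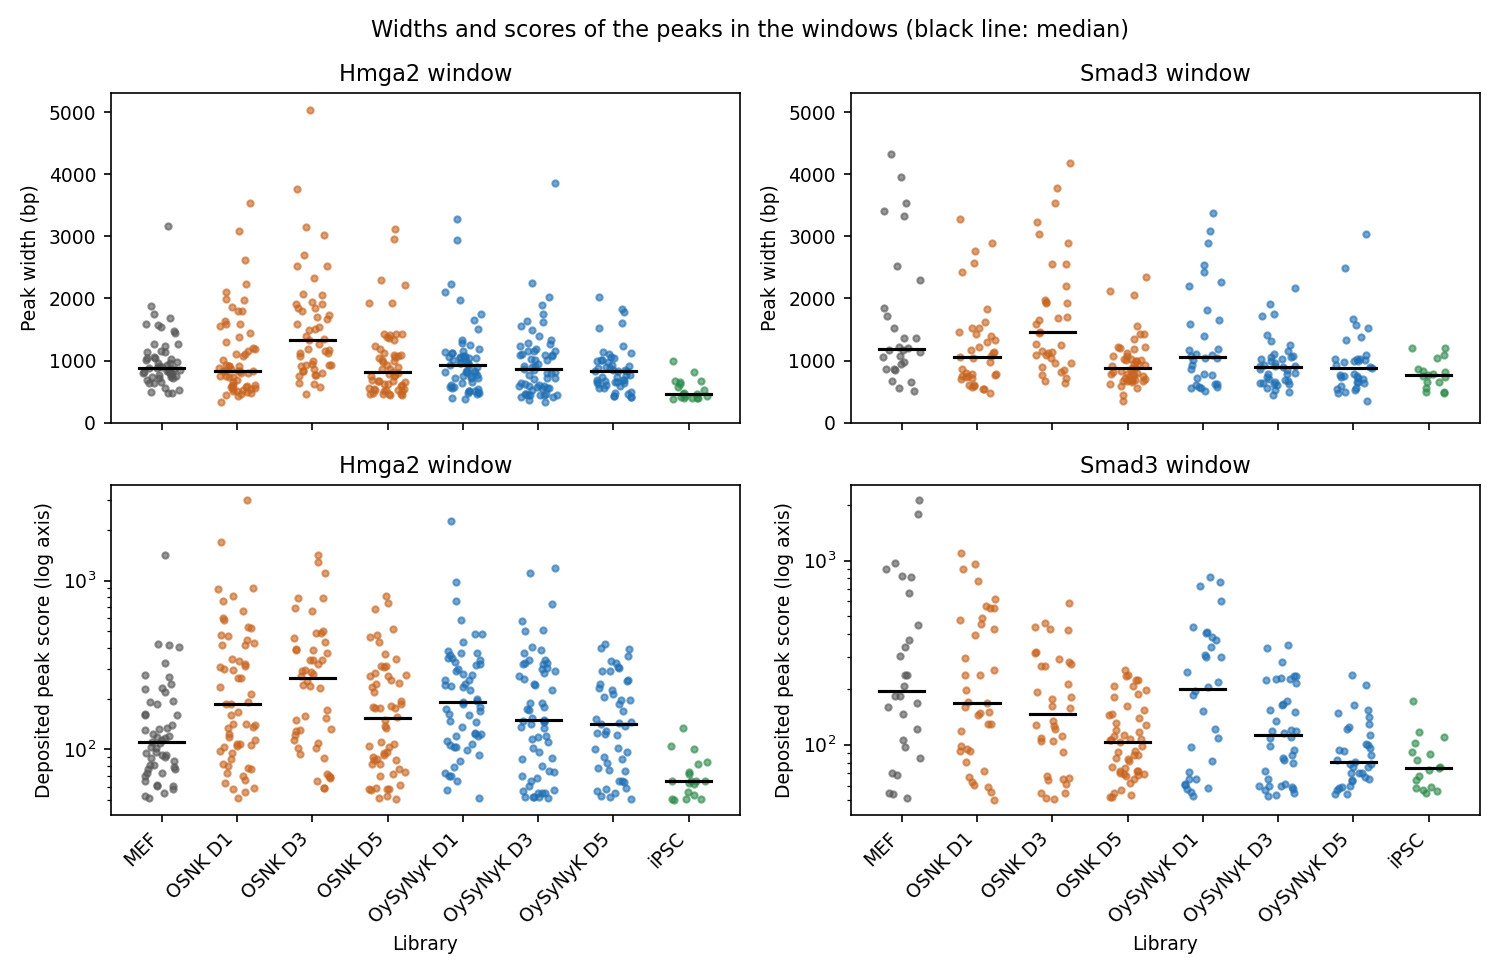
Width in bp (upper panels, linear axis from 0) and deposited score (lower panels, log axis) of every peak in the Hmga2 and Smad3 windows, by library; each point is a peak and the black line is the median. The widest peak, 5030 bp, is at Hmga2 at OSNK D3, and the iPSC peaks end at 999 bp at Hmga2 and 1209 bp at Smad3.

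The strongest MEF peak of each window was followed through the other libraries. At Hmga2 it lay at 119864096-119867260, 3165 bp wide, with a score of 1428. The best overlapping peak scored 2993, 1413 and 680 in the OSNK libraries, 2268, 1191 and 327 in the OySyNyK libraries. No iPSC peak overlapped it. The MEF peak had the rank of 142 in the MEF list. The best overlapping peak had the rank of 5 in the whole OSNK D1 list and of 3 in the OySyNyK D1 list. Peaks covered 76.6%, 99.7% and 72.7% of the MEF peak's length with OSNK and 93.0%, 71.3% and 50.6% with OySyNyK. The spot stayed marked on every day, with lower scores at D5 than at D1 under both methods.

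At Smad3 the strongest MEF peak lay at 63589467-63593417, 3951 bp wide, with a score of 2123, the rank of 22 in the MEF list. The best overlapping peak scored 902, 590 and 223 with OSNK and 814, 237 and 155 with OySyNyK, and 56.9 in iPSC. The same MEF peak met 3, 3 and 4 separate peaks with OSNK and 2, 3 and 2 with OySyNyK. At D1 it was covered to 98.5% and 96.9% of its length, at D5 to 67.1% and 68.2%, and in iPSC to 12.3% by 1 peak of 486 bp. Scores at this spot fell from MEF onward, unlike at Hmga2, where D1 scored above MEF with both methods. Both spots were picked for their MEF score, which favours lower scores in the other libraries. Scores of different libraries also have no common scale.

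Cover at each stage was split into sequence already under a MEF peak and sequence that was not. At Hmga2 OSNK kept 83.5%, 88.5% and 72.7% of the 53.7 kb of MEF, while OySyNyK kept 79.6%, 77.3% and 63.4%. Over the whole genome the kept shares were 63.4%, 48.1% and 32.9% with OSNK and 58.5%, 41.3% and 30.2% with OySyNyK. The share kept at Hmga2 was above that of the genome in each intermediate. In iPSC it was 16.5%, near the 13.3% of the genome. Dense cover of a window can raise such shares, and no reference of like cover was made. The gap to the genome is therefore not read as a trait of the locus. Newly covered sequence came to 21.4, 29.9 and 18.5 kb with OSNK and 18.03, 17.8 and 8.47 kb with OySyNyK. In all, 27.2 kb were under a peak in MEF and in all 6 intermediates, of which 21.2 kb had no iPSC peak.

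Smad3 kept less than Hmga2 in each library but iPSC. OSNK kept 75.5%, 83.1% and 66.9% of the 45.5 kb of MEF, and OySyNyK kept 70.8%, 59.9% and 54.6%. New sequence came to 13.4, 23.4 and 18.8 kb with OSNK and to 10.4, 10.9 and 9.68 kb with OySyNyK. At OSNK D5 the loss of 15.1 kb was thus outweighed by new cover, whereas at OySyNyK D5 a loss of 20.7 kb was not. In iPSC 21.1% of the MEF sequence was kept and 3.52 kb were new. Sequence under a peak in MEF and all 6 intermediates came to 16.1 kb.

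**Figure D4:**
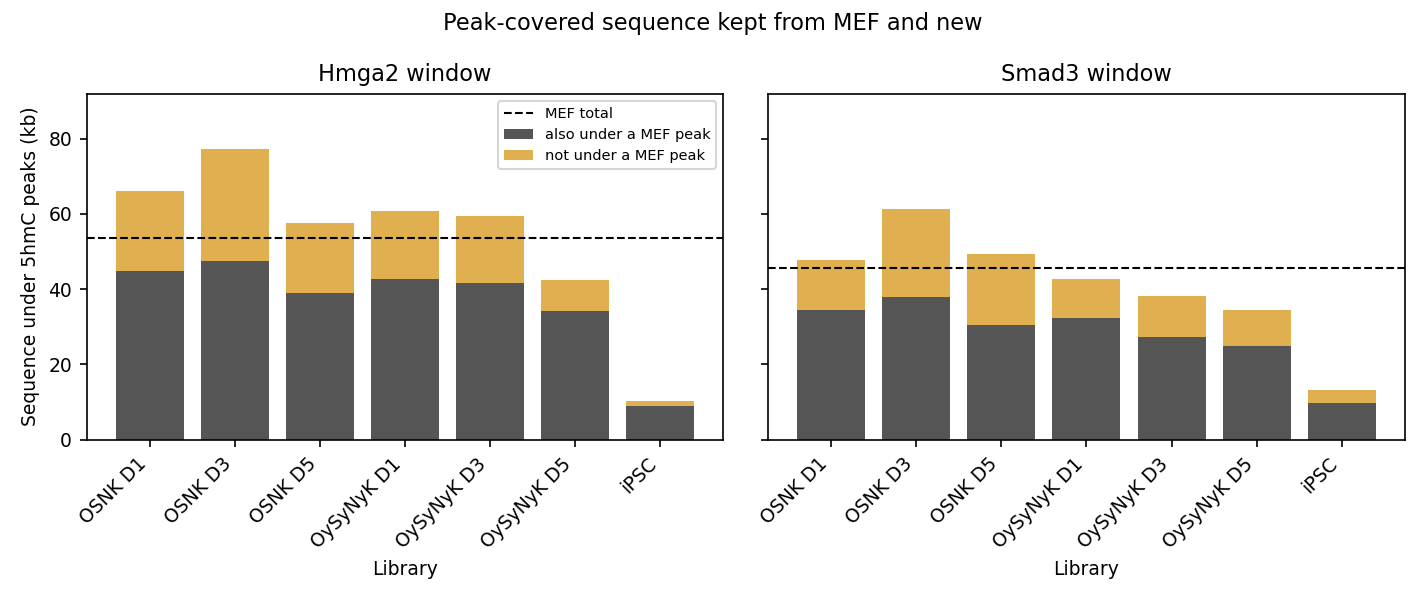
Sequence under 5hmC peaks in kb (vertical axis) in each library, split into bases also under a MEF peak (dark) and bases not under one (light), with the MEF total as a dashed line. At OSNK D3 the light part reaches 29.9 kb at Hmga2 and 23.4 kb at Smad3, and in iPSC the dark part is 8.85 kb and 9.61 kb.

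Counted by peak, most MEF peaks of both windows were found again at D5. A MEF peak counted as found where any peak of the later library touched it by at least 1 bp, and the intervals are exact 95% binomial intervals that cover counting error only. At Hmga2, 48 of 53 were found at OSNK D5, 90.6% (79.3 to 96.9), against 41.3% of all MEF peaks. At OySyNyK D5, 41 of 53 were found, 77.4% (63.8 to 87.7), against 36.3%. At Smad3, 22 of 28 were found at OSNK D5, 78.6% (59.05 to 91.7), and 21 of 28 at OySyNyK D5, 75.0% (55.1 to 89.3). At D1 the background was 74.5% with OSNK and 70.4% with OySyNyK. Hmga2 had 51 and 47 of its 53 found there, and Smad3 24 and 23 of its 28. At D3, Hmga2 had 49 of 53 found with each method, and Smad3 25 and 23 of 28, where 50.5% and 49.5% of all MEF peaks were. In iPSC 16 of 53 and 12 of 28 were found, where 17.4% of all MEF peaks were.

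As dense peaks can raise such shares, a closer reference was sought in the 39 other 100-kb tiles of at least 30% MEF cover. Of their 877 MEF peaks, 69.6% were found at OSNK D5, 67.8% at OySyNyK D5 and 36.3% in iPSC. The Hmga2 shares were above these at D5 and below in iPSC, and the Smad3 shares were above at all 3. For OSNK and OySyNyK the tiles had 84.6% and 86.2% at D1, and 77.9% and 78.1% at D3. The Hmga2 shares were above these too. Smad3 was below at OySyNyK D1, with 82.1%, and little above at OSNK D1, with 85.7%. At D3 it was above with both methods, at 89.3% and 82.1%. Neighbouring peaks of a locus are not independent and the tiles were chosen after their values were seen, so the intervals make no call between them. With peaks cut to 500 bp the Hmga2 share at OSNK D5 was 77.4%, and with an overlap of at least 50% of the MEF peak it was 79.2%. With a score of at least 100 the Smad3 share at OySyNyK D5 was 33.3%.

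In both windows, most MEF peaks were found in all 6 intermediates. At Hmga2, 40 of 53 MEF peaks were found in all 6 intermediates, against 22.5% of all MEF peaks. Those that also had no iPSC peak were 26 of the 53, against 14.7% of all MEF peaks. Among peaks found in all 6, no iPSC peak was met by 26 of the 40 at Hmga2 and by 9639 of 14820 over the genome. At Smad3, 18 of 28 were found in all 6, and 11 of these met no iPSC peak. The iPSC library took part in choosing the windows, so nothing is read from the iPSC counts. Dense peaks can raise the shares found in several libraries, and such patterns were not counted in the other tiles of high MEF cover. The shares of all MEF peaks are therefore no like reference for the patterns given here. The gaps to them are not read as a trait of the loci. A single MEF peak in each window was found in none of the intermediates (14.0% of all MEF peaks), at 119856193-119856663 and at 63619665-63620527. No MEF peak of either window was found at OySyNyK D5 and not at OSNK D5, while 8.65% of all MEF peaks were. In the opposite case, 7 of 53 at Hmga2 and 1 of 28 at Smad3 were found at OSNK D5 only, against 13.6%. Both D5 lists held 41 and 21 of them (27.7% of all MEF peaks), and neither held 5 and 6 (50.0%). Of the 7, 4 lay between 119838711 and 119845562, around the bin in which OySyNyK D5 had 20.6% cover. The other 3 were at 119898451-119899596, 119922574-119923221 and 119927000-119927639.

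**Figure D5:**
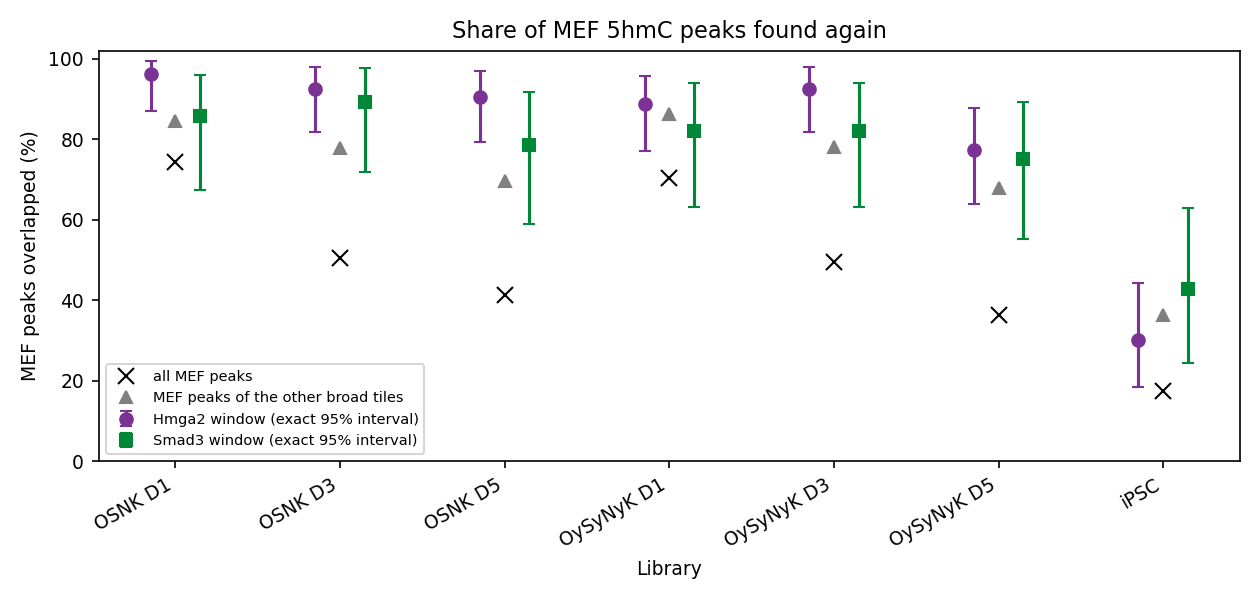
Share of MEF peaks overlapped by at least 1 bp in each later library (vertical axis, percent), with exact 95% binomial intervals for the 53 peaks of the Hmga2 window and the 28 of the Smad3 window. Crosses give all MEF peaks and triangles the MEF peaks of the 39 other tiles of at least 30% MEF cover. At D5 both windows lie above the crosses, at 75.0% or more.

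The peaks left in iPSC were fewer than in any other library, and most sat where MEF had peaks. At Hmga2, 18 of 19 iPSC peaks overlapped a MEF peak, against 21.7% of all iPSC peaks. The remaining one, at 119781524-119781897 with a score of 50.4, was found in no other library. The strongest iPSC peak, at 119875948-119876617, scored 133, and 3 of 19 scored at least 100, a share of 15.8% beside 23.6% in the list. At Smad3, 13 of 17 overlapped a MEF peak, and 4 of 17 scored at least 100, a share of 23.5%, about that of the list. The 4 others began at 63483890, 63492684, 63579052 and 63581583, and the first of these was found in no other library. At D5, OSNK peaks met 16 of the 19 and 14 of the 17 (30.9% of all iPSC peaks), and OySyNyK peaks 16 and 11 (38.9%). The windows were chosen by their MEF and iPSC cover, and dense cover in the other library raises such overlaps. The shares of all iPSC peaks are therefore no like reference, and nothing is read from these counts. Since the iPSC grew on MEF feeder cells, DNA of feeders may be in that library; its part in these peaks was not tested.

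At each matched day OySyNyK had less cover than OSNK in both windows. The differences at Hmga2 were -3.61, -12.0 and -10.03 percentage points at D1, D3 and D5, and at Smad3 -3.68, -16.4 and -10.5. OSNK lists covered more of the genome on each day, and the cover of OySyNyK was 0.918, 0.767 and 0.739 of that of OSNK at Hmga2, beside 0.836, 0.757 and 0.821 for the whole lists. Only the D5 difference was below 0 in both windows under every alternative, at -8.66 to -3.00 at Hmga2 and -10.3 to -4.09 at Smad3. At D1 the difference at Hmga2 was 1.18 with equal numbers of peaks, and scaled to the whole cover it was 3.39 at Hmga2 and 1.79 at Smad3. At D3 it was 3.67 and 1.43 with peaks of 500 bp, and 0.506 and -5.65 when scaled to the whole cover, at Hmga2 and Smad3 in each case.

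Differences between the methods varied from bin to bin, but 2-fold calls were no more frequent in the windows than among all tested bins. The called bins are named as a description. At D5, 3 of 13 tested Hmga2 bins were at least 2-fold lower with OySyNyK, and 3 of 12 Smad3 bins, where 31.1% of all tested bins were. The Hmga2 bins were 119840001-119850000 with 64.8% for OSNK and 20.6% for OySyNyK, 119900001-119910000 with 27.6% and 8.54%, and 119920001-119930000 with 17.5% and 4.29%. The Smad3 bins were 63490001-63500000 with 35.9% and 17.5%, 63520001-63530000 with 45.7% and 18.6%, and 63530001-63540000 with 37.9% and 14.1%. None was 2-fold higher with OySyNyK, against 17.6% of all tested bins. At D1 and D3, 1 Hmga2 bin each was lower, and 0 and 3 Smad3 bins (21.4% and 34.3% of all tested bins); none was higher (8.49% and 11.8%). On the 3 days, bases covered by both methods made up 69.4%, 65.6% and 62.6% of those covered by either at Hmga2. At Smad3 they made up 72.7%, 48.8% and 52.7%, and over the genome 47.8%, 38.0% and 33.0%. Dense cover can raise such shares too, and no reference of like cover was made.

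The tiles whose cover over the 8 libraries lay nearest to each window were sought among all 100-kb tiles outside them. Nearest to Hmga2 was chr8:11300001-11400000, at a distance of 10.1 percentage points, with 40.6% in MEF, 35.0% and 29.8% at D5 of OSNK and OySyNyK, and 2.18% in iPSC. It was followed by chr11:76100001-76200000 and chr17:26700001-26800000. Nearest to Smad3 was chr19:5800001-5900000, at 9.69 points, with 34.8% in MEF, 32.6% and 27.3% at D5 and 11.5% in iPSC. It was followed by chr11:116900001-117000000 and chr7:75100001-75200000. Among the 39 other tiles of at least 30% MEF cover, OSNK D5 was above MEF in 10 and below it in 29, with a median of -7.47 points. For OySyNyK D5 it was above in 8 and below in 31, with a median of -7.43. With all peaks, OSNK D5 differed from MEF by 2.58 points at Hmga2 and 2.67 at Smad3, and OySyNyK D5 by -7.45 and -7.85. Scaled to the whole cover, OSNK D5 differed from MEF by -1.56 points at Hmga2 and -1.08 at Smad3.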

How the data were processed

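The members, windows and lists were chosen with earlier results of these data known. Each library's 5hmC peaks come as a deposited list with the authors' score for every peak. Per the submitters' processing notes, Bowtie and MACS were used; versions, settings, any control and the scale of the score are unknown here. The builds in the notes, hg18 and NCBI36, are human, while the lists hold mouse chromosomes; mm9 is taken from the windows' definition. Starts were counted from 1.

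Cover is the percent of bases under peaks, computed in Python 3.11.15 (pandas 2.3.3, numpy 2.4.6, scipy 1.17.1). It was tested on simulated data, and peaks and bases equalled those of bedtools 2.31.1 in 16 of 16 windows and libraries. Bins were 10 kb, tested at 10% cover and called at 2-fold. Named were the 3 bins of highest and of lowest MEF cover and the 3 of highest iPSC cover, the strongest and the widest peaks, and the 3 tiles of 100 kb nearest by Euclidean distance. Bins called between the methods, single peaks and the tiles of at least 30% MEF cover were chosen after their values were seen. Figures were drawn with matplotlib 3.10.9.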

Additional observations from a re-analysis of the deposited data

Results flagged for a closer look

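In these comparisons cover changed in opposite directions under the methods when all peaks were counted. With 1 library each, the differences were not tested. At Hmga2, OySyNyK minus OSNK differed by -10.03 percentage points in the change from MEF to D5 (2.58 with OSNK and -7.45 with OySyNyK), and by -8.40 in the change from D1 to D3 (7.45 and -0.952). At Smad3 the changes from MEF to D1 differed by -3.68 points (1.59 and -2.09), those to D3 by -16.4 (11.2 and -5.22) and those to D5 by -10.5 (2.67 and -7.85). The changes there from D1 to D3 differed by -12.8 points (9.63 and -3.13) and from D1 to D5 by -6.85 (1.08 and -5.77). Relative to the mean tile of each library, the Smad3 change from D1 to D3 alone ran in opposite directions. It went from 9.79 to 11.8 times with OSNK and from 10.4 to 9.69 times with OySyNyK. On that scale the other changes listed had the same sign with both methods.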

How the results depend on the processing

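No paired analysis was possible because each group had 1 library. Of 144 alternative values over 34 results, 101 stayed within the interval of their value or within 1.5 times of their count, 27 moved and 16 changed sign. The interval of a cover was binomial over units of 500 bp. MEF to D5 was an alternative set chosen after seeing the data. The cause of the changes was not tested.

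Falls from MEF to iPSC kept their sign in every alternative; with peaks of 500 bp, which remove width, they were -11.3 points at Hmga2 and -3.79 at Smad3. From D1 to D5, cover scaled to the whole list changed by 4.85 (OSNK) and -2.49 (OySyNyK) at Hmga2 and by 9.44 and 2.37 at Smad3. With peaks of 500 bp OySyNyK changed by -3.66 at Hmga2 and 1.07 at Smad3. At Smad3, a score of at least 100 gave -7.29 (OSNK) and -14.1 (OySyNyK), and equal numbers of peaks gave -1.51 (OSNK).

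The OySyNyK minus OSNK difference at Hmga2 was 1.18 at D1 with equal numbers, 3.39 at D1 and 0.506 at D3 when scaled, and 3.67 at D3 with 500 bp. At Smad3 it was 1.79 at D1 and -5.65 at D3 when scaled and 1.43 at D3 with 500 bp. From MEF to OSNK D5, scaled cover changed by -1.56 at Hmga2 and -1.08 at Smad3, where a score of at least 100 gave -7.37 and equal numbers -3.90. From MEF to OySyNyK D5 Smad3 changed by -17.6 with a score of at least 100 and 2.75 with 500 bp.

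MEF peaks found at Hmga2 were 83.0% (equal numbers) and 73.6% (500 bp) at OSNK D1, 77.4% (500 bp) and 79.2% (overlap of at least 50%) at OSNK D5, and 96.7% at OySyNyK D1 and 6.67% in iPSC (score of at least 100). At Smad3 they were 33.3% at OySyNyK D5 and 9.52% in iPSC (score of at least 100) and 17.9% in iPSC (overlap of at least 50%).

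Bins lower from D1 to D5 at Hmga2 were 1 for OSNK with a score of at least 100, and for OySyNyK 5 with that score, 5 with equal numbers and 1 with 500 bp. At Smad3 they were 0 for OSNK with bins shifted by 5 kb, and for OySyNyK 8 with a score of at least 100 and 0 when tested at 20% cover. Bins lower with OySyNyK than OSNK at D5 were 5 at Hmga2 with equal numbers, and 5 at Smad3 with a score of at least 100 and with 500 bp.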
